A study of Mus musculus with 6 samples.

Results

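The genes described here encode the subunits of the mitochondrial respiratory chain and of ATP synthase. They were chosen by symbol in GENCODE M21, as protein-coding genes that begin with Ndufa, Ndufb, Ndufc, Ndufs, Ndufv, Uqcr, Cox4 to Cox8 or Atp5, together with Cyc1, Cycs and the mitochondrial genes mt-Nd, mt-Co, mt-Cytb and mt-Atp. The rule finds 104 of the 52550 genes in the count tables, of which 91 are nuclear and 13 are encoded by the mitochondrial genome. The nuclear genes hold 82 subunits, 8 assembly factors of complex I (Ndufaf1 to Ndufaf8) and Atp5s, a coupling factor. The rule takes no gene of complex II. Ndufa4 and Ndufa4l2 carry complex I names and are placed with complex IV, where the Ndufa4 protein is known to sit.

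The respiratory chain passes electrons from NADH through complex I, ubiquinone, complex III and cytochrome c to complex IV, which reduces oxygen. Complexes I, III and IV pump protons across the inner mitochondrial membrane, and complex V, the ATP synthase, uses the return of these protons to make ATP. Complexes I, III, IV and V join subunits from both genomes, and neurons rely on them for the ATP that pays for ion pumping and synaptic transmission.

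The samples are polyA RNA from the cortex of C57BL6/J mouse pups on postnatal day 2, each library made from a single hemisphere. Knockout pups (Slc7a5fl/fl; Emx1Cre+, n = 3) were compared with control pups (Slc7a5fl/fl; Emx1Cre-, n = 3), so both groups carry the floxed Slc7a5 alleles, and the design text calls the controls wild type. Slc7a5 is the catalytic part of LAT1, which carries large neutral amino acids such as leucine into cells. Cre under Emx1 control acts in the progenitors of dorsal forebrain excitatory neurons and glia, while most interneurons, microglia and vessels keep the gene. Every knockout and no control carries Cre, so an effect of Cre and an effect of the deletion cannot be told apart. In whole cortex, fewer cells of a type and less RNA per cell cannot be told apart either. The libraries of each genotype bear the letters A, B and C, and values below are given in that order.

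Slc7a5 itself stood at 15.6, 9.37 and 11.4 CPM (read counts scaled to TMM-adjusted library sizes) in knockouts, against 20.2, 40.7 and 26.1 CPM in controls. All 3 knockouts lay below all 3 controls, with a log2 change of -1.25 ± 0.28 (SE) that did not pass in edgeR (quasi-likelihood, Benjamini-Hochberg adjusted p = 0.400; 0.421 with the letter as a replicate block) and passed in DESeq2 (adjusted p = 0.000367). Total gene counts ran from 9524407 to 10372582 in knockouts and from 8249436 to 10077443 in controls. Reads outside exons were 27.4 to 27.9% of the mapped reads in knockouts and 22.5 to 26.5% in controls, and their part in the results below was not tested. Excitatory neuron and cortex markers were present in every library, summing to 3087 to 3324 CPM in knockouts and 3103 to 3412 CPM in controls. Of these 8 markers, 3 had a positive and 5 a negative log2 change. Of 9 interneuron markers, 8 had a positive log2 change, with sums of 1360 to 1712 CPM in knockouts and 1359 to 1440 CPM in controls. Of 8 markers of radial glia and progenitors, 7 had one, with sums of 435 to 469 CPM in knockouts and 387 to 438 CPM in controls, and none of the markers in these lists was at 0. Endothelial and mural markers had a positive change in 6 of 6 (sums of 181 to 235 CPM in knockouts and 168 to 203 CPM in controls) and microglial markers in 7 of 8 (127 to 176 CPM in knockouts and 114 to 143 CPM in controls). Oligodendrocyte lineage markers had one in 0 of 5, and their sums did not overlap, at 190 to 205 CPM in knockouts and 211 to 254 CPM in controls. Choroid plexus markers summed to 2.68 to 27.3 CPM in knockouts and 0.705 to 145.3 CPM in controls, with 1 marker tested and its change negative. Markers of the meninges summed to 7.72 to 84.8 CPM in knockouts and 7.45 to 86.1 CPM in controls, with 3 tested and all changes positive. Whether these cell types take part in the results below was not tested. Xist, a noncoding RNA made in female cells, reached 961 CPM in knockout B and 918 CPM in control B and at most 2.95 CPM in the other libraries.

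The mitochondrial-encoded genes showed the widest range of levels, and 5 of the 6 with almost no reads are those copied nearly whole in the nuclear genome. Of the 13 genes, 7 entered the test and 6 were at or near 0 in every library. Those 6 were mt-Nd3, mt-Nd4l, mt-Co2, mt-Co3, mt-Atp6 and mt-Atp8. All 6 libraries together held 13 reads of mt-Co2, 24 of mt-Co3, 18 of mt-Atp6, 5 of mt-Nd3, 1 of mt-Atp8 and 0 of mt-Nd4l, whereas mt-Nd4 had 588918. A count of 0 allows up to 0.278 to 0.312 CPM in a knockout library and 0.302 to 0.372 CPM in a control library (3 counts per library, counting error only).

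A run of pseudogenes on chromosome 1 copies this stretch of the mitochondrial genome. In GENCODE M21 on GRCm38, the copies of 7 genes lie between positions 24611535 and 24616197 on the minus strand. The copy of mt-Co2 (Gm28661) matched over 681 bases with 0 mismatches, that of mt-Atp6 (Gm10925) over 678 with 0, and that of mt-Co3 (Gm28437) over 783 with 0. The copy of mt-Nd3 (Gm28438) had 1 mismatch in 345 bases, and that of mt-Nd4l (Gm10222) had 0 in 294. The multi-mapping line is 0 in every table, so reads with several places in the genome are counted for none of them. The 90-base stretches below are shown because they give the 2 situations in letters: mt-Co2 (chrM:7133-7222, plus strand) with its copy Gm28661 (chr1:24615356-24615445, minus strand), in which no base differs, and mt-Nd2 (chrM:4502-4591, plus strand) with its copy Gm13339 (chr2:22590384-22590473, minus strand), in which 3 bases differ. They are from GENCODE M21 transcripts on GRCm38, 5′ to 3′, and capitals mark the bases at which a copy differs from the mitochondrial gene.
mt-Co2: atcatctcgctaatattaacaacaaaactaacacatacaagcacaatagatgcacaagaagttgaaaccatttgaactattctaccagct
Gm28661: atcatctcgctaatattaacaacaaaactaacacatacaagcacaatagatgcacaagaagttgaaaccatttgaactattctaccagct
mt-Nd2: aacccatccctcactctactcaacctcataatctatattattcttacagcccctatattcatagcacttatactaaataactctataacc
Gm13339: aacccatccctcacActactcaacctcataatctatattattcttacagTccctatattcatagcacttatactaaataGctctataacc

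Among all 50-base stretches of a gene, the share also found in annotated transcripts of genes elsewhere was 100% for mt-Co2, 99.9% for mt-Co3, 99.5% for mt-Atp6, 98.8% for mt-Nd4l and 98.0% for mt-Nd3. It was 62.2% for mt-Nd4, whose copy covers only one end. For mt-Co1 it was 51.1%, from a copy of one end on chromosome 1 (28.7%) and another copy on chromosome 2 (27.5%). It was 8.19% for mt-Nd2 and 7.61% for mt-Nd5. It was 0% for mt-Nd1, mt-Cytb and mt-Nd6. mt-Atp8 also shared 0% with annotated transcripts and yet had 1 read. It lies between mt-Co2 and mt-Atp6, and 21.1% of its bases overlap mt-Atp6. No genome sequence was used, so whether unannotated parts of the chromosome 1 copy match mt-Atp8 was not tested. The counts of the 5 genes shared by 98.0% or more cannot be read as levels of the transcripts. The only subunits of complex V encoded by the mitochondrial genome, mt-Atp6 and mt-Atp8, are among the 6 genes at or near 0.

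**Figure D1:**
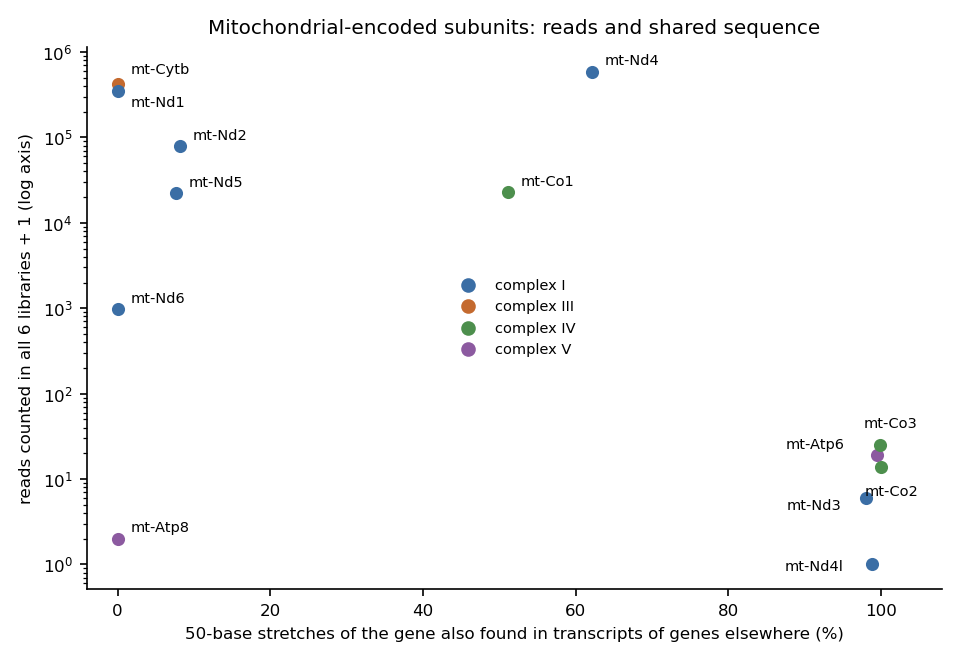
Reads counted for each of the 13 mitochondrial-encoded genes over all 6 libraries (log axis, 1 added) against the share of its 50-base stretches that also occur in annotated transcripts elsewhere. The 5 genes with 98.0 to 100% shared stretches have 0 to 24 reads, mt-Atp8 has 1 read without a shared stretch, and the other genes have 972 to 588918 reads.

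Of the 7 mitochondrial genes tested, none passed. The levels of mt-Nd4 and mt-Co1 are uncertain, because over the whole gene they averaged 7312 and 257 CPM per kb and over their unshared stretches alone 20071 and 543 CPM per kb, if all counted reads came from there. mt-Nd4, a proton-pumping core subunit of complex I (chromosome M from 10167 to 11544), was the most abundant, at 12997, 8979 and 10215 CPM in knockouts and 12165, 6511 and 9589 CPM in controls. The libraries of both genotypes followed the order A, C, B, and the groups overlapped. Its log2 change was 0.19 ± 0.26 (SE, adjusted p = 0.933), and 0.22 ± 0.11 with the letter as a replicate block (adjusted p = 0.417). mt-Nd1, another core subunit, reached 5793, 5486 and 6025 CPM in knockouts, against 6424, 6007 and 6812 CPM in controls. Its knockout C lay just above control B, and the log2 change was -0.15 ± 0.093 (SE, adjusted p = 0.796).

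mt-Cytb, the catalytic cytochrome b of complex III, was level between genotypes within its spread. It had 7142, 7480 and 6930 CPM in knockouts and 7193, 6867 and 7956 CPM in controls (log2 change -0.031 ± 0.093, adjusted p = 0.968). mt-Co1, the catalytic core of complex IV, had 381, 384 and 379 CPM in knockouts and 394, 404 and 440 CPM in controls. All 3 knockouts lay below the controls, by a log2 change of -0.11 ± 0.098 (SE) that did not pass (adjusted p = 0.861). mt-Nd2 and mt-Nd5, core subunits of complex I, had log2 changes of 0.015 ± 0.11 and -0.023 ± 0.10 (SE), with adjusted p of 0.991 and 0.981.

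mt-Nd6 is the one member encoded on the other strand of the mitochondrial genome. It had 20.4, 13.1 and 15.3 CPM in knockouts and 14.7, 20.7 and 17.6 CPM in controls, with fully overlapping groups (log2 change -0.12 ± 0.18, adjusted p = 0.936). Of the reads at this gene, 98.1% were on the opposite strand, which is that of the neighbouring mitochondrial transcripts. At the neighbours mt-Cytb and mt-Nd5, 1.67% and 9.44% of reads lay on the strand opposite to their own. Whether the reads counted for mt-Nd6 are its own or stray reads of that kind was not tested, so its level is uncertain. Over the 7 genes tested, 2 had a positive and 5 a negative log2 change, with a median of -0.031, beside a median of 0.0011 and 49.8% negative among all 14913 genes tested.

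The 13 mitochondrial genes together gave 28189, 23955 and 25323 CPM in knockouts, against 28073, 21542 and 26405 CPM in controls. Divided by the summed nuclear subunits, this was 1.97, 1.65 and 1.74 in knockouts and 1.88, 1.43 and 1.74 in controls. The ratios overlapped, and in each genotype library A was highest and library B lowest. The 6 genes at or near 0 add almost nothing to these sums. The 2 ribosomal RNAs of mitochondria do not belong to the chain, and mt-Rnr1, the smaller, had the larger shift of the pair, at -0.25 ± 0.15 on the log2 scale (SE, adjusted p = 0.799).

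The nuclear subunits ran from Cox8b, with no reads, and Cox8c, at 0.0378, to Cox6b1, at 773 CPM per kb. Levels between genes are given as CPM per kb of merged exons, as the mean of all 6 libraries. In complex IV, Cox6b1 led with 773 and Cox6a1 followed with 639 CPM per kb. Both encode peripheral subunits of the enzyme. In complex V the leaders were Atp5k, the e subunit of the membrane part, with 626, and Atp5g3, which encodes the proton-carrying c subunit of the rotor ring, with 491 CPM per kb. In complex I, Ndufa2 and Ndufa1, both accessory subunits, had 501 and 323 CPM per kb. In complex III, Uqcrh, the hinge protein that helps cytochrome c bind, had 376 and Uqcr10 had 291 CPM per kb. Cycs, the soluble carrier between complexes III and IV, had 5.64 CPM per kb.

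Some nuclear subunits have processed pseudogenes. Of the 82 nuclear subunits, 5 shared more than 20% of their 50-base stretches with other annotated genes, namely Atp5g2 (36.7%), Cycs (26.1%), Uqcrb (25.4%), Cox7c (22.1%) and Ndufs5 (21.7%). Their median level was 5.64 CPM per kb, and that of the other 77 was 88.2 CPM per kb. Over the 82 genes the level and the shared share had a Spearman rho of -0.236, a description across genes that differ in length. Reads from the shared stretches can go uncounted, so the levels of these 5 genes are uncertain. The same limit holds in part for subunits with a lower share, such as Atp5h (19.9%, 41.0 CPM per kb) and Ndufs3 (16.1%, 3.33 CPM per kb). Of the 82 subunits, 41 shared no stretch.

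**Figure D2:**
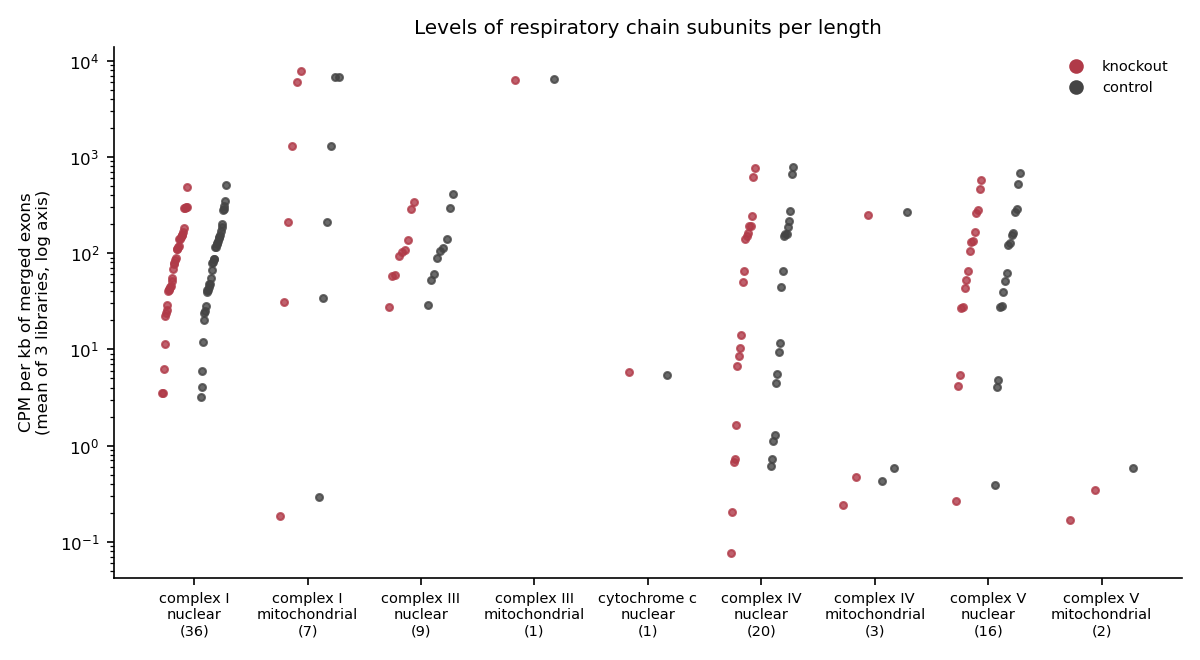
Mean CPM per kb of merged exons (log axis) of each subunit in the 3 knockouts (red, left) and the 3 controls (grey, right), by complex and genome, with the number of subunits in brackets. Genes at 0 in a group are not drawn. mt-Nd4, mt-Nd1, mt-Cytb and mt-Nd2 lie above every nuclear subunit in both genotypes, and the mitochondrial genes of complex V lie below 1 CPM per kb.

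The main comparison asked whether any subunit differed between the genotypes, and none passed the test. Of the 104 genes, 92 passed the filter on low counts, 85 nuclear and 7 mitochondrial. The other 12 had at most 11 reads in any library. With 6 genes of the nuclear genome among them, they were Atp5g2, Cox4i2, Cox7b2, Cox8b, Cox8c, Ndufa4l2 and the 6 mitochondrial genes above. At an adjusted p under 0.05, edgeR called 0 of 92 members in either direction, against 0.0335% of all 14913 genes. With the letter as a replicate block it called 0 of 92, against 0.845% of all genes, and DESeq2 called 0 of 92, against 0.174%. At an unadjusted p under 0.05 there were 3 members, 1 with a positive change (Cox6a2) and 2 with a negative one (Uqcrh and Ndufs6), against 3.19% positive and 3.81% negative among all genes.

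In TMM-scaled CPM, the libraries of the 2 genotypes did not overlap in 9 of the 92 members tested. In 2 members, Cox6a2 and Ndufa13, all 3 knockouts lay above all 3 controls, against 5.89% of all genes tested. In 7 members, Ndufs6, Ndufaf7, Ndufb8, Ndufb2, Uqcrh, Atp5g3 and mt-Co1, all knockouts lay below all controls, against 6.28%. On this scale the summed CPM of all genes tested was also lower in knockouts, a difference of -2.76%. Whether these members stay apart under other scalings was not tested. The median standard error of the nuclear subunits was 0.108 on the log2 scale, and 65 of 76 had one under 0.15.

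**Figure D3:**
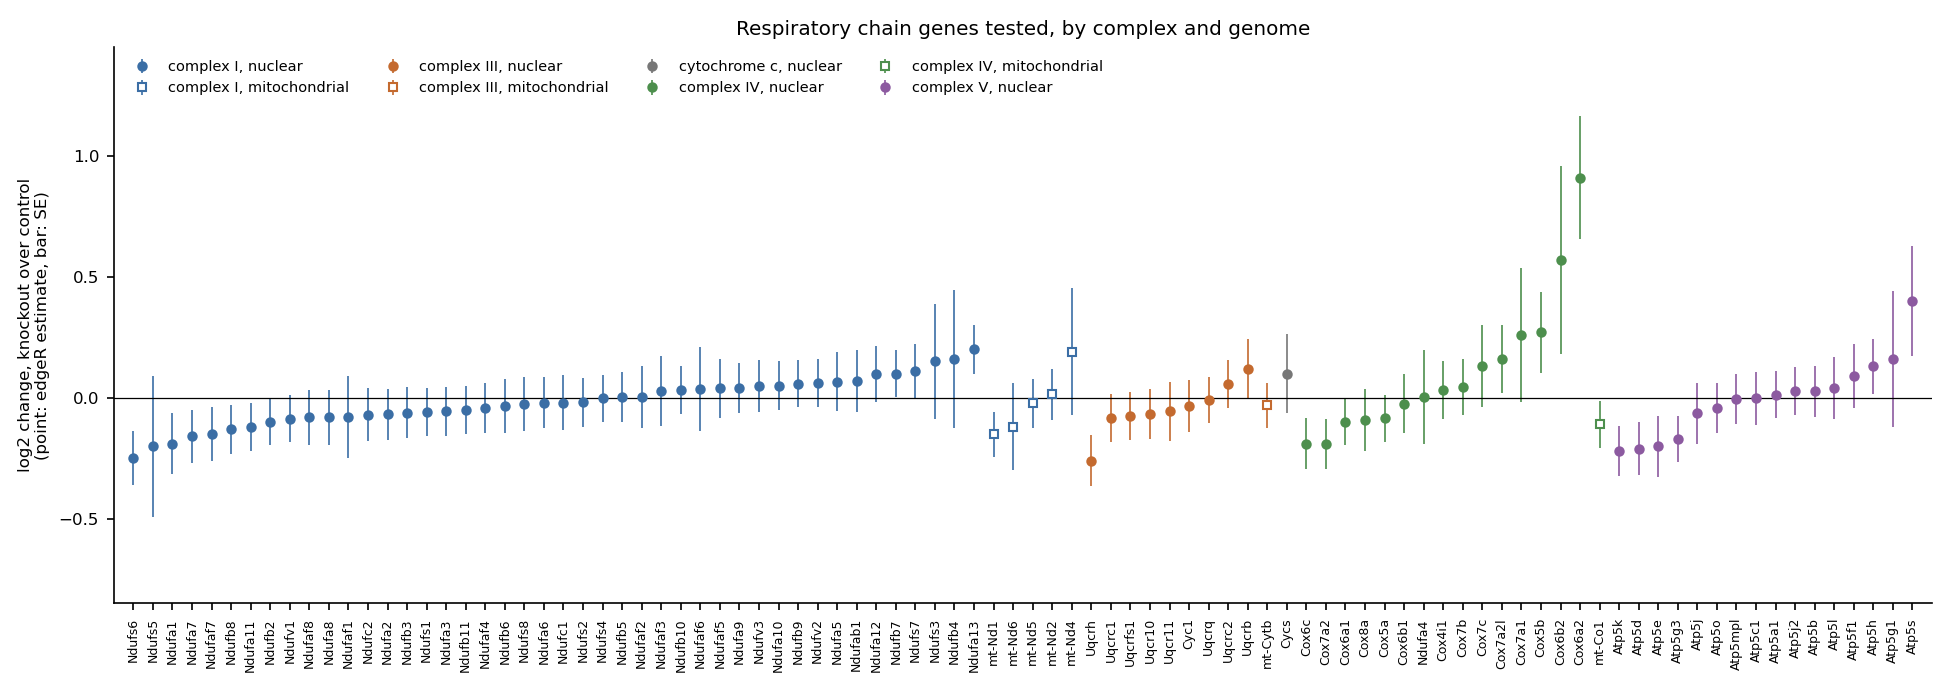
log2 change, knockout over control, of the 92 members tested (points, bars give the SE), ordered by complex, genome and size. Filled circles are nuclear genes, with the assembly factors and Atp5s included in complexes I and V, and open squares are mitochondrial genes; Cox6a2 at 0.91 stands highest, Uqcrh at -0.26 lowest, and 67 of the 92 points lie within their SE of 0.

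By complex, the nuclear subunits of complex I (36 tested) had 15 positive and 21 negative log2 changes, with a median of -0.020. Complex III (9 tested) had 2 positive and 7 negative, with a median of -0.056. Complex IV (15 tested) had 9 positive and 6 negative, with a median of 0.033, and complex V (15 tested) had 7 positive and 8 negative, with a median of -0.0029. All 76 nuclear subunits tested had 34 positive and 42 negative changes and a median of -0.014, where all protein-coding genes tested had a median of -0.011 with 52.7% negative. Pair by pair, the median difference of the nuclear subunits was -0.051 for letter A, 0.040 for letter B and -0.046 for letter C, so the sign of the shift varied between pairs. The core subunits of complex I (7 tested) had a median of -0.018 and its accessory subunits (29 tested) -0.020, while the 8 assembly factors had 4 positive and 4 negative changes with a median of -0.020.

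In complex I, the member with the smallest p was Ndufs6, an accessory subunit next to the electron-entry module (ENSMUSG00000021606, GRCm38 chromosome 13 from 73319838 to 73328542, minus strand). It had 139, 142 and 137 CPM in knockouts, against 148, 192 and 159 CPM in controls. The knockouts were close together, and control B was highest. The log2 change was -0.25 ± 0.11 (SE, unadjusted p = 0.0357, adjusted p = 0.699), with an adjusted p of 0.247 under the replicate block. Ndufa13, an accessory subunit also known as GRIM-19 (ENSMUSG00000036199, chromosome 8 from 69894180 to 69902558, minus strand), went the other way. It had 177, 206 and 193 CPM in knockouts, against 165, 161 and 175 CPM in controls, a log2 change of 0.20 ± 0.10 (SE, adjusted p = 0.734).

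Ndufa1 and Ndufa2, the accessory subunits of highest level, had log2 changes of -0.19 ± 0.13 and -0.069 ± 0.11 (SE), with adjusted p of 0.825 and 0.938. The change of Ndufa1 was -0.079 without knockout B and -0.32 without knockout C. The core subunit Ndufs3 and the accessory subunit Ndufb4 had the widest errors among the nuclear genes of complex I with a positive change, 0.15 ± 0.24 and 0.16 ± 0.28 on the log2 scale. For Ndufb4 the values were 35.4, 62.4 and 29.9 CPM in knockouts and 40.3, 42.2 and 32.6 CPM in controls, so knockout B alone stood apart.

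In complex III, Uqcrh was lower in each knockout than in each control in TMM-scaled CPM (ENSMUSG00000063882, chromosome 4 from 116066965 to 116075071, minus strand). Its values were 423, 393 and 455 CPM in knockouts, against 460, 552 and 507 CPM in controls. Knockout C and control A were only a few CPM apart. The log2 change of -0.26 ± 0.11 (SE, unadjusted p = 0.0281) did not pass (adjusted p = 0.666), nor with the replicate block (adjusted p = 0.241). Uqcrb, the subunit that binds ubiquinone, had a log2 change of 0.12 ± 0.12 (SE, adjusted p = 0.880) and Uqcr10 one of -0.067 ± 0.10 (adjusted p = 0.938). Cyc1 and Uqcrfs1, the catalytic cytochrome c1 and iron-sulphur subunits, had log2 changes of -0.035 ± 0.11 and -0.076 ± 0.099 (SE).

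In complex IV the member with the smallest p of all was Cox6a2, the isoform of subunit 6A known from heart and skeletal muscle (ENSMUSG00000030785, chromosome 7 from 128205435 to 128206387, minus strand). It had 6.07, 5.75 and 5.40 CPM in knockouts, against 3.72, 3.10 and 2.34 CPM in controls. All knockouts lay above all controls. The log2 change was 0.91 ± 0.25 (SE, unadjusted p = 0.00247), which did not pass in edgeR after adjustment (adjusted p = 0.409) and came nearest with the replicate block (adjusted p = 0.0713). Cox6a2 had no 50-base stretch in another annotated gene. Of 6 striated muscle markers, 2 could be tested and both had a negative log2 change, with sums over the list of 13.7 to 15.7 CPM in knockouts and 15.3 to 17.5 CPM in controls. Whether muscle or any other cell type is the source of the Cox6a2 reads was not tested.

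Subunits of complex IV come in tissue isoforms. The share of each isoform in the summed level per length uses the same counts, so for 6A it restates the change of Cox6a2. Cox6a2 made up 1.35% ± 0.051 of the 6A isoforms in knockouts and 0.679% ± 0.18 in controls (SD, n = 3), and Cox6a1, the common isoform, took the rest. Cox6a1 itself had a log2 change of -0.099 ± 0.098 (SE, adjusted p = 0.884). For subunit 7A, Cox7a2 took 81.0% ± 4.3 in knockouts and 84.5% ± 0.71 in controls. The supercomplex factor Cox7a2l took 16.8% ± 4.0 in knockouts and 13.8% ± 0.78 in controls, and the muscle isoform Cox7a1 2.25% ± 0.41 in knockouts and 1.71% ± 0.22 in controls. All 3 shares overlapped between the genotypes.

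The other isoform pairs were dominated by 1 gene in both genotypes. Cox4i1 took 99.9% ± 0.045 of subunit 4 in knockouts and 99.7% ± 0.14 in controls. Its lung isoform Cox4i2 was under the filter on low counts, at 0.103, 0.278 and 0.104 CPM in knockouts and 0.302, 0.744 and 0.407 CPM in controls, groups that did not overlap and rest on a few reads per library. Cox7b2 was also under the filter, with 0.400% ± 0.24 of subunit 7B in knockouts and 0.807% ± 0.17 in controls, which rests on a few reads per library. Cox6b1 took 99.8% ± 0.056 of subunit 6B in knockouts and 99.9% ± 0.055 in controls, beside the testis isoform Cox6b2 with a log2 change of 0.57 ± 0.39 (SE, adjusted p = 0.825).

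Cox8a made up essentially all of subunit 8, with Cox8b at 0 reads in every library and Cox8c at 0.104 CPM in knockout C and 0 in the others. Ndufa4 took 98.9% ± 0.41 of its pair in knockouts and 98.9% ± 0.45 in controls. It had 74.8, 124 and 71.7 CPM in knockouts, against 92.6, 90.1 and 87.1 CPM in controls, so knockout B was high and the other knockouts low (log2 change 0.0033 ± 0.19, adjusted p = 1). Cox7a2 had the smallest p in complex IV after Cox6a2 (edgeR, unadjusted p = 0.0896, adjusted p = 0.766). It had 226, 211 and 244 CPM in knockouts and 244, 260 and 271 CPM in controls (log2 change -0.19 ± 0.10, SE). The highest knockout value lay just above the lowest control value.

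In complex V, Atp5k and Atp5d had the smallest p-values. Atp5k had 341, 333 and 395 CPM in knockouts, against 392, 442 and 412 CPM in controls, with knockout C just above control A. Its log2 change was -0.22 ± 0.11 (SE, adjusted p = 0.718). Atp5d, the delta subunit of the central stalk, had 203, 193 and 213 CPM in knockouts, against 204, 255 and 245 CPM in controls, a log2 change of -0.21 ± 0.11 (SE, adjusted p = 0.737). The low control was A, which lay between the knockouts.

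Atp5g3 gave the most reads of any nuclear member (ENSMUSG00000018770, chromosome 2 from 73908447 to 73911326, minus strand). It had 1020, 974 and 1034 CPM in knockouts, against 1099, 1151 and 1149 CPM in controls, with no overlap. The log2 change was -0.17 ± 0.094 (SE, adjusted p = 0.776). The same mature c subunit is encoded by 3 genes. Of their counted level per length, Atp5g3 took 98.8% ± 0.55 in knockouts and 99.0% ± 0.12 in controls. Atp5g1 had a log2 change of 0.16 ± 0.28 (SE, adjusted p = 0.945). Atp5g2 fell under the filter and is one of the genes whose pseudogenes share its sequence. Atp5g1 and Atp5g2 shared 11.1% and 36.7% of their stretches with other annotated genes, and Atp5g3 shared none. Reads from shared stretches can go uncounted, so the share of Atp5g3 among the c subunit genes may be too high. The size of this effect was not tested. The F1 head subunits Atp5a1 and Atp5b, which carry the nucleotide-binding sites, had log2 changes of 0.013 ± 0.098 and 0.027 ± 0.11 (SE).

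**Figure D4:**
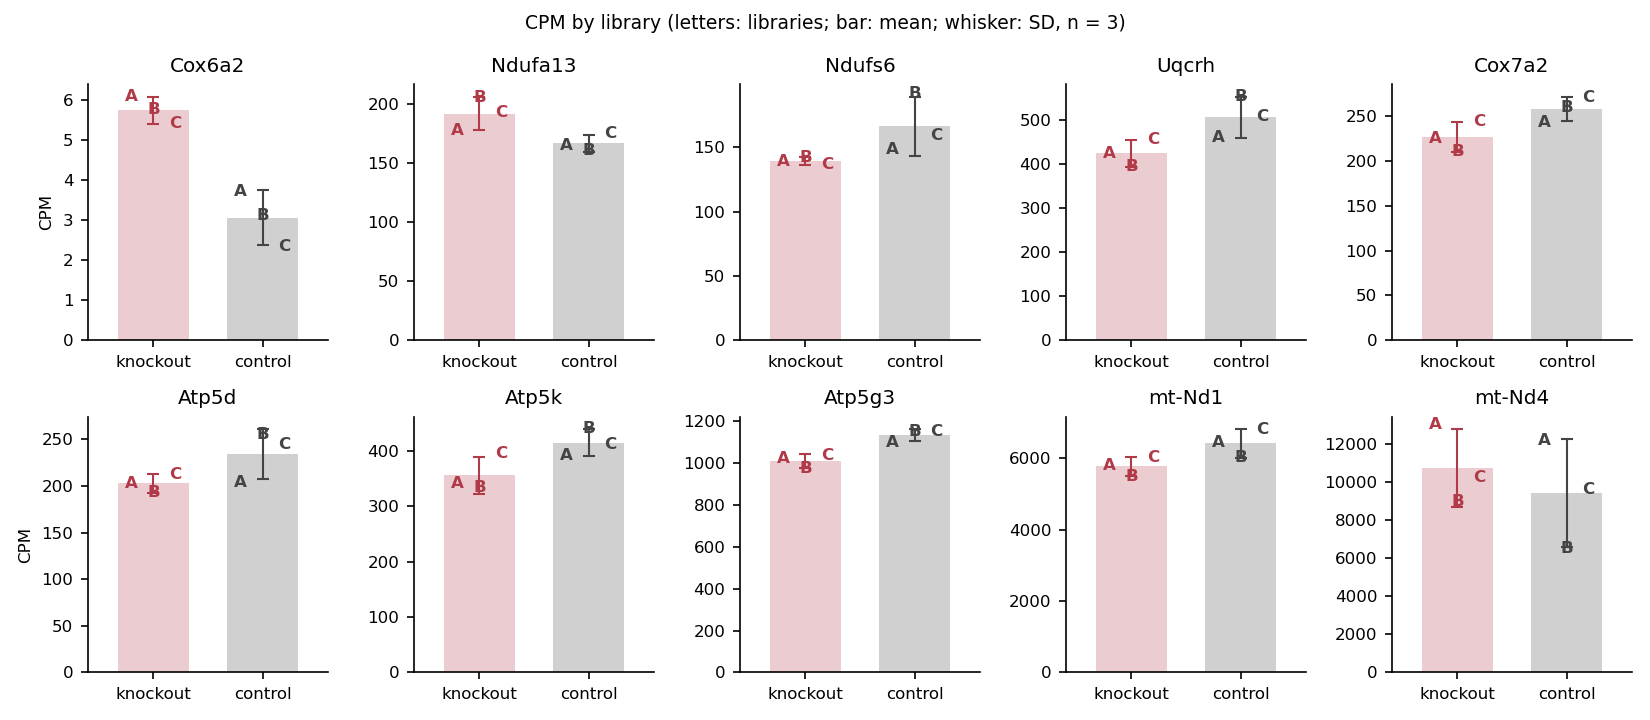
CPM of 10 members by library, knockouts left and controls right; letters mark the libraries, bars the mean and whiskers the SD (n = 3). Cox6a2 and Ndufa13 have all knockouts above all controls, Ndufs6, Uqcrh and Atp5g3 have all knockouts below, and mt-Nd4 follows the order A, C, B in both genotypes.

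The sum of the nuclear subunits depended on how libraries were scaled. On TMM-scaled library sizes it was 14342, 14499 and 14525 in knockouts, against 14948, 15058 and 15147 in controls, a difference of -3.96% with no overlap. On raw totals of gene counts it was 14147, 15071 and 14678 in knockouts, against 14738, 14716 and 14981 in controls, a difference of -1.21% with overlap. Scaling to nuclear genes gave -1.14% and scaling to nuclear protein-coding genes -0.773%, both with overlap. The summed CPM of all protein-coding genes tested was also lower on the TMM scale, averaging 938574 in knockouts and 968072 in controls, a difference of -3.05%. The genes with the largest share in the difference were Atp5g3 at -123.5 CPM, Cox6c at -93.8 CPM and Uqcrh at -82.4 CPM, knockout minus control.

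**Figure D5:**
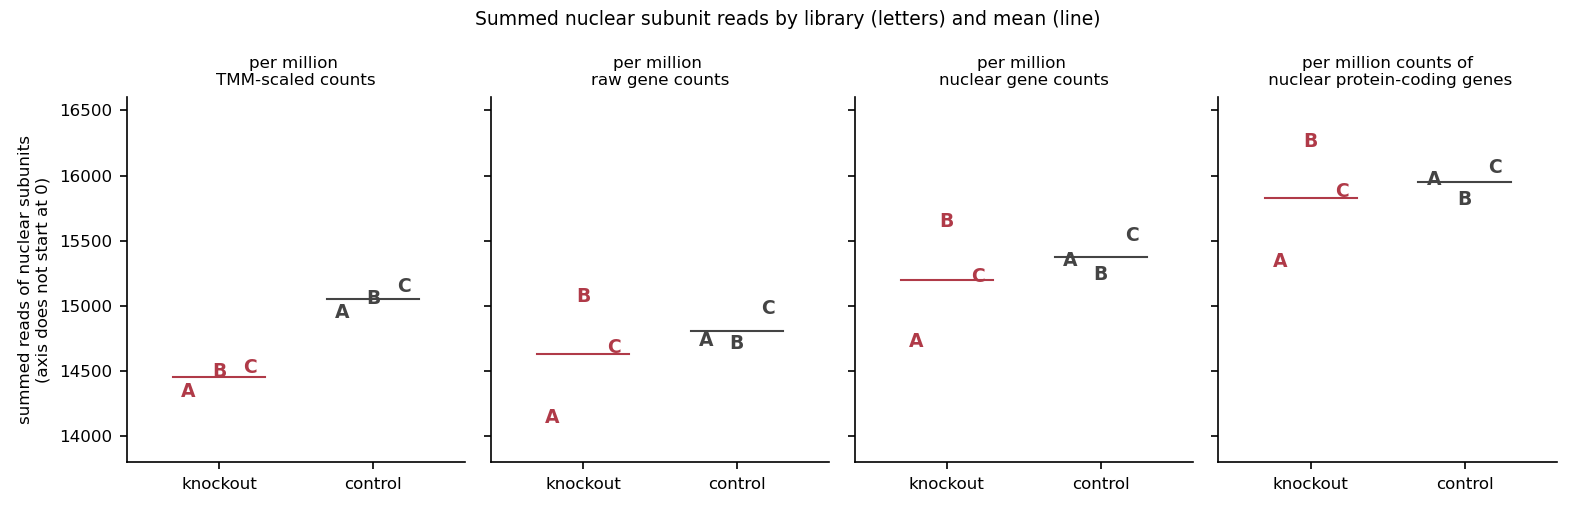
Summed reads of the 82 nuclear subunits by library (letters) and group mean (line) under 4 scalings, knockouts left and controls right. The axis does not start at 0. Knockouts lie below controls without overlap only with TMM scaling (-3.96%), and overlap them under the other 3 scalings.

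Some members differed by letter in both genotypes, as many other genes did. In 10 of the 85 nuclear members tested (11.8%) both libraries of letter B, those with high Xist, lay below the other 4, against 9.65% of all genes tested. In 11 (12.9%) both lay above, against 9.12%. Among the first were Cox6b1, Atp5o and Ndufa5, and among the second Cox4i1, Cox7a2l and Ndufs8. For letter A the nuclear counts were 4 below and 4 above (4.71% each, against 8.36% and 8.41%). For letter C they were 8 and 5 (9.41% and 5.88%, against 7.81% and 7.22%). Among the 7 mitochondrial genes tested, both A libraries were highest for mt-Nd2, mt-Nd4 and mt-Nd5 (42.9%, against 8.41%). Both B libraries were lowest for mt-Nd4 and mt-Nd5 (28.6%, against 9.65%).

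The promoters were examined for motifs of factors known to drive these genes, NRF1, GABP of the ETS family and YY1. RefSeq windows from 250 bases before to 50 after the start of transcription (GRCm38.p6) were available for 74 of the 91 nuclear members. On either strand, the NRF1 motif (GCGCA, any base, GCGC) was present in 17 of these 74 windows (23.0%), against 5.19% of the 27025 windows of all genes. The ETS motif CCGGAAG was in 16 (21.6%, against 9.93%) and the YY1 motif AAGATGGC in 11 (14.9%, against 3.19%). TGATGNAA, a core shared by elements of the amino acid response, was in 0 of 74 (against 4.51%), and TATAAA in 7 (9.46%, against 15.7%). Such matches are letters in a window and not tested sites. The windows of Cox6a1 (chr5:115348909-115349208, minus strand) and Ndufs6 (chr13:73328433-73328732, minus strand) are shown because they carry several of these motifs in 2 genes named above. They run 5′ to 3′ from RefSeq GRCm38.p6, with NRF1, ETS and YY1 matches in capitals; an ETS match on the minus strand reads CTTCCGG, and an NRF1 match on the minus strand reads GCGC, any base, TGCGC.
Cox6a1: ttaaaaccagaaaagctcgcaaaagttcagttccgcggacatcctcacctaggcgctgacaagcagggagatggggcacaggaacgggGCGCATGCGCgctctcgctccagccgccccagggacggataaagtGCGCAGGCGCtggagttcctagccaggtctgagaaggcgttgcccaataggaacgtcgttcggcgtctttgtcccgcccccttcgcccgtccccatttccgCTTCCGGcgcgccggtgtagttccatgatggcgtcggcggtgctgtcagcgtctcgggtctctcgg
Ndufs6: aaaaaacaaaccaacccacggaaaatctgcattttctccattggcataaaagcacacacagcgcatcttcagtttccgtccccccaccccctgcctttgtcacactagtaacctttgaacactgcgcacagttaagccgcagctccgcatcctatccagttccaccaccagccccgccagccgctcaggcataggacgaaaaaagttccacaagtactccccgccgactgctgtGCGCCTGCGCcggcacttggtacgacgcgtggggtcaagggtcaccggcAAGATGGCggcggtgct

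By complex, the NRF1 motif was in 6 of 15 windows of complex V, 9 of 39 of complex I, 1 of 14 of complex IV and 1 of 5 of complex III. The YY1 motif was in 8 of 39 windows of complex I and 3 of 15 of complex V, and in 0 of the 14 of complex IV. In the window of Cox6a1 both NRF1 matches lie upstream of the ETS match, and the Ndufs6 window holds 1 NRF1 and 1 YY1 match.

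Genes around the chain were taken from 11 lists, in which 90 genes were tested. The lists hold complex II, the assembly factors of each complex, coenzyme Q synthesis, the mitochondrial transcription machinery, regulators of the nuclear genes, the mitochondrial ribosomal RNAs and factors of supercomplexes. At an adjusted p under 0.05 edgeR called 0 of the 90, with and without the replicate block, and 2 had an unadjusted p under 0.05. In complex II, 4 genes were tested, 1 with a positive and 3 with a negative log2 change, and Sdhc, a membrane anchor, had the smallest p at -0.097 ± 0.10 (SE, adjusted p = 0.903). Acad9, an assembly factor of complex I, had 4.01, 5.01 and 3.84 CPM in knockouts, against 2.11, 3.23 and 2.95 CPM in controls, a log2 change of 0.64 ± 0.27 (SE, adjusted p = 0.682). Cox20, an assembly factor of complex IV, had 64.0, 67.6 and 60.5 CPM in knockouts, against 62.1, 50.9 and 45.9 CPM in controls (0.27 ± 0.12, adjusted p = 0.708). All knockouts lay above all controls for Acad9, and control A lay among the knockouts for Cox20.

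In the remaining lists the smallest p belonged to genes with small shifts. These were Sdhaf3 for complex II assembly (log2 change 0.22 ± 0.18, SE), Uqcc2 for complex III assembly (0.16 ± 0.13), Tmem70 for complex V assembly (-0.14 ± 0.11) and Coq5 for coenzyme Q synthesis (0.23 ± 0.13). Polg, the mitochondrial DNA polymerase, had 0.16 ± 0.12, Gabpb2, a subunit of GABP, 0.37 ± 0.19 and Higd2a, a factor of supercomplexes, -0.21 ± 0.10. Their adjusted p-values ran from 0.728 for Higd2a to 0.855 for Sdhaf3. Ppargc1a, the coactivator known for mitochondrial biogenesis, was named after its values were seen and had 51.2, 47.7 and 53.8 CPM in knockouts and 52.1, 43.7 and 47.7 CPM in controls, with overlapping groups (adjusted p = 0.922).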

How the data were processed

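The deposited tables hold raw counts of reads per gene for 6 libraries, unnormalised. Per the submitters' processing notes, STAR 2.5.4 was used with GRCm38 (also listed as mm10). The authors' annotation release is not given in the sources used here. Column 3, the strand that holds most reads, was used, since the labels' protocols give a strand-specific kit. GENCODE M21 matched 52403 of 52550 identifiers. A second Atp5o identifier of that annotation was not used here.

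In R 4.3.3, genes were kept by edgeR 4.0.16's filterByExpr (14913), scaled by TMM and compared by the two-sided robust quasi-likelihood test. A call needed an adjusted p (Benjamini-Hochberg, over all genes) under 0.05. Alternatives were the letter as a replicate block, DESeq2 1.42.0 and its size factors, no filter, nuclear-gene scaling and leaving out 1 library. The blocked fit without 1 letter at a time was added after seeing the data. The script was checked on simulated counts. Members, lists and motifs were chosen with earlier results of these data known.

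Named genes were all mitochondrial members, in each complex the 2 nuclear members with the smallest p and the 2 of highest level per length, cytochrome c, the isoform pairs, and from each other list the gene with the smallest p; members named beyond this rule were chosen after their values were seen. Knockout and control of the same letter correlated in their deviations from the group mean at 0.417, 0.342 and 0.211 across genes. Other pairs stood at -0.031 or below. Deviations from a group mean cancel within a genotype, so the negative values follow in part from the positive ones. By these data same-letter libraries may be paired. The values given are from the fit without the block unless the block is named. The labels do not say what the letters mark. The design text calls the samples biological replicates. The lowest chi-square per gene between libraries of a genotype was 7.04, so none were counted as 1 sample. With no genome sequence at hand, shared stretches were searched in annotated transcripts.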

Additional observations from a re-analysis of the deposited data

How the results depend on the processing

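Under all 14 alternatives, edgeR and DESeq2 called 0 respiratory chain members in either direction, while 1 to 228 genes of the whole table were called. Of 30 named members tested, 16 kept their direction under every alternative, among them Cox6a2 (0.74 to 1.08 on the log2 scale, adjusted p 0.0713 to 1), Uqcrh (-0.32 to -0.13), Ndufs6 (-0.33 to -0.14) and Atp5g3 (-0.19 to -0.13). Sizes moved more for Ndufa1 (-0.32 to -0.079), Atp5d (-0.30 to -0.10), Cox6b2 (0.28 to 0.83), Cox7a1 (0.098 to 0.54), Uqcr10 (-0.12 to -0.0091) and Uqcrb (0.024 to 0.23). None of the 30 had passed the threshold, and none passed it under an alternative. With the replicate block, Ndufa4 changed sign (-0.041); the block changed no call. Without the filter on low counts, the median of the mitochondrial genes was -0.12, since the genes at a few reads then enter.

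Leaving out 1 library, or 1 letter pair in the blocked fit, moved the median of complex I over -0.071 to 0.0083 and that of complex III over -0.10 to -0.013 (1 library only). The following members changed sign in at least 1 such fit, with their log2 range: Atp5g1 (-0.16 to 0.42), Cox4i1 (-0.11 to 0.11), Cox6b1 (-0.10 to 0.10), Cox7a2l (-0.036 to 0.28), Cox7b (-0.086 to 0.17), Cox8a (-0.18 to 0.056), Cycs (-0.0014 to 0.29), Ndufa2 (-0.12 to 0.036), Ndufa4 (-0.29 to 0.14), mt-Cytb (-0.10 to 0.056), mt-Nd2 (-0.076 to 0.094), mt-Nd4 (-0.018 to 0.41), mt-Nd5 (-0.079 to 0.029) and mt-Nd6 (-0.43 to 0.14). The cause was not tested.

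With 3 libraries a genotype, a median SE of 0.108 on the log2 scale limits what the test can call, and a p above the threshold does not show that a level was the same. Members under the filter were not measurable at this depth, and the 5 mitochondrial genes copied nearly whole were not measurable with this counting.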

Other observations

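Lrpprc, which encodes a protein that stabilises mitochondrial messenger RNAs, was singled out after its values were seen. It had 281.6, 184.6 and 235.3 CPM in knockouts A, B and C, against 240.2, 113.0 and 215.5 CPM in controls. In each genotype the order was A, C, B, and each knockout was above the control of its letter. mt-Nd4 and mt-Nd5 also had this order in both genotypes, while mt-Nd1, mt-Nd2, mt-Nd6, mt-Co1 and mt-Cytb did not. Among all genes tested, both A libraries were highest in 8.41% and both B libraries lowest in 9.65%. Whether Lrpprc is linked to the mitochondrial transcripts in these libraries was not tested. The log2 change of Lrpprc was 0.30 ± 0.33 (SE, edgeR's quasi-likelihood test, adjusted p = 0.912), and 0.35 ± 0.10 with the letter as a replicate block (adjusted p = 0.0902), neither past the threshold.

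Sdhd, a membrane anchor of complex II, had 12.5, 76.2 and 12.7 CPM in knockouts and 23.7, 74.2 and 70.0 CPM in controls. It spread more within each genotype than the other 3 genes of complex II.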
